A study of Mus musculus with 15 samples.

Results

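Retinoic acid is made from vitamin A inside cells and acts on gene expression through nuclear receptors. This account follows 9 genes of that pathway, chosen by name from the 53465 genes of the deposited table, and all 9 passed the filter on low values. They are the retinaldehyde dehydrogenases Aldh1a1, Aldh1a2 and Aldh1a3, the carriers and binding proteins Rbp4, Crabp1 and Crabp2, and the retinoic acid receptors Rara, Rarb and Rarg. They were measured in endovascular progenitors (EVP), transit amplifying cells (TA) and definitive differentiated cells (D), with 5 RNA sequencing libraries per population and 15 in all. The cells were host cells sorted as GFP+ from B16-F0 tumors on day 15, and B16-F0 is a mouse melanoma cell line. The mice of all groups were CAG-GFP transgenics, which express GFP ubiquitously, so GFP separated host from tumor cells and did not mark a cell type. The mice of the study were 8 to 14 weeks old. The gates were CD34+ and lineage negative, with low CD31 and VEGFR2 for EVP, intermediate CD31 with low VEGFR2 for TA, and high levels of both for D. No group received a drug, and the sources used here do not say how many animals stand behind a library, so the errors measure the spread between libraries.

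Retinol travels in blood bound to Rbp4, is taken up by cells and is oxidized to retinaldehyde by alcohol and retinol dehydrogenases. The Aldh1a enzymes then oxidize retinaldehyde to retinoic acid in an irreversible step. Crabp1 and Crabp2 bind retinoic acid in the cytoplasm, and Crabp2 delivers it to the nucleus. There the receptors Rara, Rarb and Rarg, paired with retinoid X receptors, sit on DNA and switch target genes, while enzymes of the Cyp26 family break retinoic acid down. In vessels retinoic acid is known for its part in endothelial differentiation and growth control during development, and aldehyde dehydrogenase activity is widely used as a marker of stem and progenitor cells.

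The genes lie on 7 chromosomes of GRCm38. Aldh1a1 (chromosome 19, 20492715 to 20643462, forward strand) and Rbp4 (chromosome 19, 38116620 to 38125321, reverse strand) share a chromosome, as do Crabp1 (chromosome 9, 54764748 to 54773110, forward strand) and Aldh1a2 (chromosome 9, 71215789 to 71296243, forward strand). Aldh1a3 is at chromosome 7, 66390890 to 66427517 on the reverse strand, and Crabp2 is at chromosome 3, 87948666 to 87953376 on the forward strand. Rara is at chromosome 11, 98927818 to 98974942 on the forward strand. Rarb is at chromosome 14, 16430839 to 16819156 on the reverse strand, and Rarg is at chromosome 15, 102234938 to 102257517 on the reverse strand. No exon of another annotated gene overlapped exons of 8 of the 9 genes. Rarb was the exception, since 34.1% of its exon bases are also exon bases of Top2b on the opposite strand. The library method does not mark strand, so reads from that stretch of 1793 bases cannot be divided between Rarb and Top2b, whose mean was 2017 normalized counts.

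The promoters of 3 genes are shown because they frame what follows: Rarb and Cyp26a1 are textbook genes with a retinoic acid response element near their start, and Aldh1a1 showed the largest difference between populations of the 9 genes. RefSeq windows (GRCm38.p6) of 300 bases, from 250 before to 50 after a transcription start, were found for 7 of the 9 genes, with 13 windows in all, and not for Aldh1a3 and Crabp2. The capitals in the first pair of sequences mark a DR5 element, the classical binding element of the receptors, in which a 6-base motif is repeated in the same direction with 5 bases between the copies. Those in the last sequence mark the letters CCAAT. The Aldh1a1 window is 1 of 2 windows of that gene. The windows are Rarb at chr14:16575427-16575726 on the reverse strand, Cyp26a1 at chr19:37697558-37697857 on the forward strand and Aldh1a1 at chr19:20601718-20602017 on the forward strand.
Rarb: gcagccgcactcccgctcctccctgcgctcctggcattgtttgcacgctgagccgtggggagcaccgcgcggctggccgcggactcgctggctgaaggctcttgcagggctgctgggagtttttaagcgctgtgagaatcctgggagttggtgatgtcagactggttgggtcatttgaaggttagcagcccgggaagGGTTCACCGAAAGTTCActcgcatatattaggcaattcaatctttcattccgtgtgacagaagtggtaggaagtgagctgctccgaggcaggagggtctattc
Cyp26a1: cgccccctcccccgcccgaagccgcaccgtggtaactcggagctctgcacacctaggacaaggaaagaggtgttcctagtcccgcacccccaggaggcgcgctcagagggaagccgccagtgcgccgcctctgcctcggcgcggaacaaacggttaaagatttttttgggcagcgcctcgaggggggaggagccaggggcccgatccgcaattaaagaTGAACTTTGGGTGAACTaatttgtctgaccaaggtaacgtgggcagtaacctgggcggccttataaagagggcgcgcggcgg
Aldh1a1: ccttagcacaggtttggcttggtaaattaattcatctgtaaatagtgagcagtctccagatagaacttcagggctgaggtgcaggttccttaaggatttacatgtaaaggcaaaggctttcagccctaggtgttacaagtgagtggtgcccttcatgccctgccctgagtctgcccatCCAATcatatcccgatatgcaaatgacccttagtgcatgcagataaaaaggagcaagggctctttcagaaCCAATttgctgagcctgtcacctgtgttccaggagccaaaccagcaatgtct
Relative to the start site, the DR5 element lay from -53 to -37 in Rarb, from -32 to -16 in Cyp26a1 on the opposite strand, and CCAAT from -72 to -68 and from -2 to 3 in Aldh1a1, where the start site is 1 and there is no position 0. Both strands of every window were searched. A DR5 element was held by 0.0974% of the 32851 mouse windows (32 windows), and none of the other 12 windows of the 9 genes held these letters. CCAAT was held by 37.4% of the windows. A match is a match of letters in the reference and no measure of binding in these cells.

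The shallowest library held 5394356 reads on genes and the deepest 26513073, and the population medians were 20024738 (EVP), 17407441 (TA) and 19952975 (D). Values are normalized counts, which are read counts divided by 1 size factor per library. A level of 3 reads equalled between 1.81 and 10.5 normalized counts and served as the limit of detection, which covers counting error only. Replicate 1 of each population stood apart by reads spread over many genes. Of 1406 olfactory receptor genes, which these cells should not use, 96.2% had a read in EVP replicate 1, 84.4% in D replicate 1 and 75.9% in TA replicate 1, and the share was over 50% in 3 further libraries (EVP replicate 2, TA replicates 2 and 3) and as low as 2.70% in D replicates 4 and 5. The sum of 10 endothelial markers was 88199 to 144314 normalized counts in D, 5632 to 63030 in TA and 2246 to 4129 in EVP, and each of the 10 had more than 3 reads in at least 1 EVP library. The sum of 10 fibroblast markers was 847250 to 1505581 in EVP, 192799 to 611636 in TA and 1167 to 4252 in D. The libraries labelled EVP were thus the lowest of the 15 in summed endothelial and the highest in summed fibroblast markers, without overlap with TA or D. Of the 10 endothelial markers only Tek had a higher mean in EVP (1578) than in TA (583). Its EVP libraries (585 to 2335) overlapped those of D (1689 to 3373).

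The genes for enzymes and carriers had their highest mean in EVP, a lower mean in TA and a mean close to the limit of detection in D, whereas the libraries of all 3 populations overlapped for the receptors Rara and Rarg. The plot of all 9 genes by library shows both patterns.

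**Figure D1:**
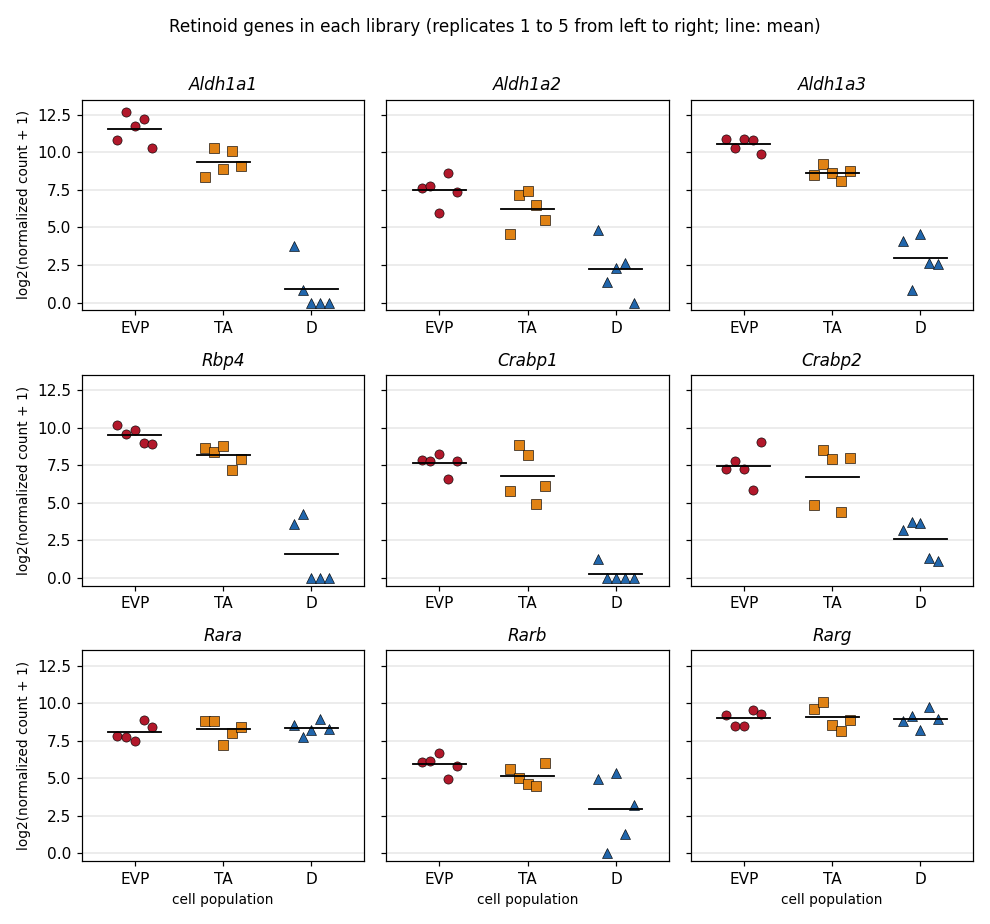
Level of each of the 9 retinoid genes in each library, as log2(normalized count + 1) on the vertical axis, by cell population on the horizontal axis, with 1 point per library (replicates 1 to 5 from left to right) and the mean as a line. The 5 EVP libraries lie above all D libraries for Aldh1a1, Aldh1a2, Aldh1a3, Rbp4, Crabp1 and Crabp2, and the populations overlap for Rara, Rarb and Rarg.

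The comparison of EVP with D asked what separates the proposed progenitor from the differentiated endothelial cell. Of the 9 genes, 7 passed the threshold (limma, adjusted p under 0.05 over 25549 genes), and all 7 were higher in EVP. These were Aldh1a1, Aldh1a2, Aldh1a3, Rbp4, Crabp1, Crabp2 and Rarb. Over all genes tested, 11.6% passed with a higher level in EVP and 7.46% with a higher level in D. For 6 of the 9 genes every library of one population lay above every library of the other, which held for 17.7% of all genes. The median log2 fold change of the 9 genes was 5.22, beside 0.46 for all genes.

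Aldh1a1, the enzyme most used to mark stem cells, had 1833, 6512, 3425, 4793 and 1232 normalized counts in EVP replicates 1 to 5. In D the values were 12.4, 0.816, 0, 0 and 0. Every EVP library exceeded every D library, and 4 of the 5 D libraries held at most 3 reads of the gene. The log2 fold change was 10.63 ± 0.67 (SE, adjusted p = 4.04e-09), from means of 3559 ± 2160 in EVP and 2.63 ± 5.45 in D (SD, n = 5 each). The D mean came almost entirely from replicate 1 and was 0.204 without it.

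Aldh1a3, which makes retinoic acid in the eye, nose and other epithelia, followed with 1878, 1229, 1904, 1797 and 961 normalized counts in EVP. It had 16.5, 0.816, 22.7, 5.26 and 4.83 in D. Its EVP libraries were within 1.98-fold of each other, the narrowest spread of the 9 genes in that population. The fitted log2 fold change was 7.60 ± 0.53 (adjusted p = 1.50e-08).

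Aldh1a2, the main retinoic acid source of the early embryo, was the least abundant of these enzymes, with 197, 219, 59.7, 392 and 160.4 normalized counts in EVP. The D values were 27.5, 1.63, 3.91, 5.26 and 0. EVP replicate 3 was the low library and D replicate 1 the high one, and the populations still did not overlap. This gave a log2 fold change of 5.22 ± 0.80 (adjusted p = 9.73e-05), and the D mean of 7.65 became 2.70 without replicate 1.

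Rbp4, the plasma carrier of retinol, had 1169, 764, 902, 495 and 487 normalized counts in the EVP libraries. The D libraries had 11, 18.0, 0, 0 and 0. Only D replicates 1 and 2 held more than 3 reads. On the log2 scale the difference was 7.93 ± 0.76 (adjusted p = 5.93e-07).

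Crabp1, which binds retinoic acid in the cytoplasm, had 228, 222, 305, 96.7 and 222 normalized counts in EVP. In D it had 1.37, 0, 0, 0 and 0, which is 1 read in the 5 libraries together. The EVP mean was at least 82.8-fold higher than the mean limit of 3 reads per D library. The fit gave an adjusted p of 4.28e-07.

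Crabp2, the binding protein that hands retinoic acid to its receptors, had 151, 216, 154, 55.9 and 535 normalized counts in the EVP libraries. The D libraries had 8.24, 12.2, 11.7, 1.5 and 1.21. Replicate 4 was the lowest and replicate 5 the highest EVP library, a 9.57-fold span. The fitted log2 fold change was 4.82 ± 0.86 (adjusted p = 4.62e-04).

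Rarb, the receptor gene that is itself a classical retinoic acid target, was the weakest of the 7 calls. It had 66.7, 70.5, 99.8, 30.4 and 55.3 normalized counts in the EVP libraries, and 30.2, 0, 40.6, 1.5 and 8.46 in those of D. D replicate 3 lay inside the EVP range, and D replicate 1 lay just below the lowest EVP library. The log2 fold change was 2.96 ± 0.86 (adjusted p = 0.0208), and the call was lost on whole reads with edgeR (adjusted p = 0.221) and DESeq2 (adjusted p = 0.0786), with quantile normalization (0.349), without the 6 libraries in which most olfactory receptor genes had a read (0.133), and without EVP replicate 3 (0.0544), D replicate 2 (0.0529) or D replicate 4 (0.0633). Cyp26a1, whose promoter window holds the same element as that of Rarb, had a mean of 4.61 ± 9.21 normalized counts over the EVP libraries and of 3.76 ± 3.82 over those of D, and its EVP mean was 0.499 without replicate 1.

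Rara, the most widely expressed of the receptors, did not pass the threshold. Its values were 221, 218, 180.0, 469.9 and 339 normalized counts in the EVP libraries and 369, 215, 289, 489 and 313 in D. The log2 fold change was -0.27 with a 95% interval from -0.99 to 0.45 (adjusted p = 0.715). Rarg, a receptor prominent in skin and cartilage, had 579, 362, 356, 747 and 622 in EVP and 457, 557, 290.0, 839.9 and 491 in D. Its log2 fold change was 0.04 with an interval from -0.73 to 0.80 (adjusted p = 0.959). The libraries of both populations overlapped for both genes. These intervals are not adjusted for the number of genes tested, and with 5 libraries each, differences up to their ends remain compatible with the values.

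In D replicate 1 all 7 genes that passed lay below the level per kb of exon that the top 5% of olfactory receptor genes exceeded in the same library. In EVP replicate 1 the same held for Aldh1a2, Crabp2, Rara and Rarb. Without replicate 1 of each population the 7 genes still passed, with log2 fold changes from 3.41 for Rarb to 11.51 for Aldh1a1. Fewer cells of a type and less RNA per cell cannot be told apart in these bulk libraries. All 10 fibroblast markers were higher in EVP than in D (median log2 fold change 9.29) and 9 of 10 endothelial markers were lower (median -6.73), and their part in these results was not tested.

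**Figure D2:**
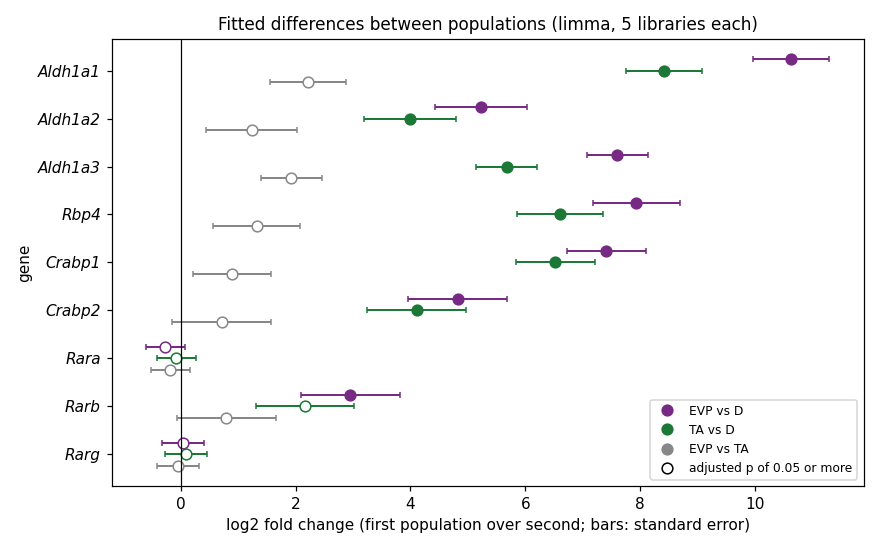
Fitted log2 fold change of each gene (horizontal axis, first population over second, bars for the standard error) in EVP against D, TA against D and EVP against TA, with filled points for adjusted p under 0.05 and open points for the rest. The values for EVP against D range from -0.27 for Rara to 10.63 for Aldh1a1, and every point for EVP against TA is open.

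The comparison of TA with D asked which of these genes the intermediate population shares with EVP against the differentiated cell. Of the 9 genes 6 passed, all higher in TA, namely the 3 Aldh1a genes, Rbp4, Crabp1 and Crabp2. Over all genes, 8.21% passed with a higher level in TA and 4.31% with a higher level in D. Complete separation of the libraries was seen for 5 of the 9 genes, against 9.25% of all genes, and Aldh1a2 was the called gene that overlapped. The median log2 fold change was 4.11, beside 0.24 for all genes. Both this comparison and the previous one used the same D libraries.

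Aldh1a1 had 327, 1215, 478, 1073 and 542 normalized counts in TA, and its log2 fold change over D was 8.41 ± 0.67 (adjusted p = 1.85e-07). Aldh1a3 had 357, 598, 396, 266 and 426, with a log2 fold change of 5.68 ± 0.53 (adjusted p = 1.22e-06). Aldh1a2 had 22.4, 143, 171, 88.5 and 44.2, with a log2 fold change of 3.99 ± 0.80 (adjusted p = 0.00262). TA replicate 1 was the lowest TA library for Aldh1a1 and Aldh1a2, and for Aldh1a2 it lay below D replicate 1. With quantile normalization Aldh1a2 no longer passed (adjusted p = 0.0839).

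Rbp4 had 396, 331, 431, 144 and 239 normalized counts in TA, with a log2 fold change over D of 6.60 ± 0.76 (adjusted p = 1.26e-05). Crabp1 had 53.4, 461, 292, 29.0 and 69.1, and its TA mean was at least 69.7-fold above the mean limit of 3 reads per D library. The fit gave it an adjusted p of 4.94e-06. Crabp2 had 27.6, 359, 243, 19.6 and 255, with a log2 fold change of 4.11 ± 0.86 (adjusted p = 0.00362). The binding proteins split the TA libraries: replicates 2 and 3 were high and replicates 1 and 4 low for both genes, while replicate 5 was high for Crabp2 only. Crabp2 no longer passed with quantile normalization (adjusted p = 0.0807) or without the 6 libraries in which most olfactory receptor genes had a read (0.155).

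Among the receptors, Rarb had 48.3, 30.8, 23.4, 21.2 and 64.1 normalized counts in TA, and its log2 fold change over D of 2.16 ± 0.86 did not pass (adjusted p = 0.123). It passed without D replicate 1 (0.0496) or D replicate 3 (0.0441) and with array weights (0.0380). Rara had 443, 446, 151, 259 and 342 in TA, and Rarg had 798, 1061, 373, 278 and 475. Their 95% intervals for the log2 fold change over D were -0.80 to 0.64 and -0.67 to 0.85. TA replicate 2 was the highest and replicates 3 and 4 the lowest for Rarg, so the spread within TA was wider than the distance between the means.

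The comparison of EVP with TA asked which of these genes mark the progenitor against its closest neighbor. None of the 9 passed the threshold in limma, with 2 at an unadjusted p under 0.05 (Aldh1a1 and Aldh1a3), 1 called by edgeR (Aldh1a3) and 2 by DESeq2 (Aldh1a1 and Aldh1a3). Over all genes, 1.56% passed in limma with a higher level in EVP and 1.94% with a higher level in TA. Of the 25549 genes, 3962 had an unadjusted p under 0.05 in limma, 663 were called by edgeR and 1900 by DESeq2. The libraries nevertheless did not overlap for Aldh1a1, Aldh1a3 and Rbp4, 3 of the 9 genes, against 4.29% of all genes. The median log2 fold change was 0.89, beside 0.09 for all genes.

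Aldh1a1 was 4.90-fold higher in the EVP mean, and its lowest EVP value of 1232 lay just above its highest TA value of 1215. The log2 fold change was 2.22 with a 95% interval from 0.81 to 3.62 (adjusted p = 0.0802). Aldh1a3 was 3.80-fold higher, with a log2 fold change of 1.92 and an interval from 0.81 to 3.04 (adjusted p = 0.0548). Aldh1a3 passed in 7 and Aldh1a1 in 4 of the 13 alternatives other than those that left out a single library, and both passed without D replicate 1 (0.0425 and 0.0151). Rbp4 was 2.48-fold higher, with a log2 fold change of 1.32 and an interval from -0.27 to 2.92 (adjusted p = 0.452).

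The other 6 genes overlapped between EVP and TA. Crabp1 and Crabp2 had means in EVP and TA of 215 ± 74.8 against 181 ± 189 and of 222 ± 184 against 181 ± 150.4 normalized counts. The means of Aldh1a2 were 206 ± 121 and 93.8 ± 63.2, and those of Rarb were 64.5 ± 25.2 and 37.6 ± 18.3. Rara and Rarg had 95% intervals from -0.91 to 0.53 and from -0.82 to 0.71 on the log2 scale. Of the 10 fibroblast markers 6 were higher in EVP than in TA and none was lower (median log2 fold change 1.79), and 7 of the 10 endothelial markers were lower.

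On the log2 scale the TA mean lay closer to EVP than to D for each of the 7 genes that separated EVP from D. Where 0 is the EVP mean and 1 the D mean, TA stood at 0.209 for Aldh1a1, 0.236 for Aldh1a2, 0.253 for Aldh1a3, 0.167 for Rbp4, 0.120 for Crabp1, 0.148 for Crabp2 and 0.268 for Rarb. All 5 TA libraries were above every D library for Aldh1a1, Aldh1a3, Rbp4, Crabp1 and Crabp2, 4 were for Aldh1a2 and 2 for Rarb. The positions depend on the log2 scale and its added count of 1, since the D means lay near the limit of detection. On the normalized counts themselves the TA mean of Aldh1a1 lay nearer D (means of 3559, 727 and 2.63 in EVP, TA and D). The same held for Aldh1a2, Aldh1a3, Rbp4 and Rarb, while Crabp1 and Crabp2 lay nearer EVP on that scale. These positions describe the means and carry no test.

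Levels of different genes were compared per kb of exon. In EVP the order of mean normalized counts per kb was Aldh1a1 (721), Rbp4 (568), Aldh1a3 (337), Crabp1 (268), Crabp2 (168), Rarg (125), Aldh1a2 (90.9), Rara (65.4) and Rarb (12.3), and only Rarb was separated from its neighbor in that order. In TA the order was Rbp4 (229), Crabp1 (226), Aldh1a1 (147), Rarg (140.1), Crabp2 (137), Aldh1a3 (88.5), Rara (75.2), Aldh1a2 (41.4) and Rarb (7.13), and all neighbors overlapped. In D the order began with Rarg (124) and Rara (76.8), and the libraries of Crabp2, the next gene at 5.28, lay below those of Rara without overlap. From there Rbp4 (4.31), Aldh1a2 (3.38), Rarb (3.07), Aldh1a3 (2.2), Aldh1a1 (0.534) and Crabp1 (0.342) overlapped in turn. In these level orders the D libraries held Rarg and Rara above all 3 enzymes, while in EVP Aldh1a1 and Aldh1a3 stood above the receptors.

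**Figure D3:**
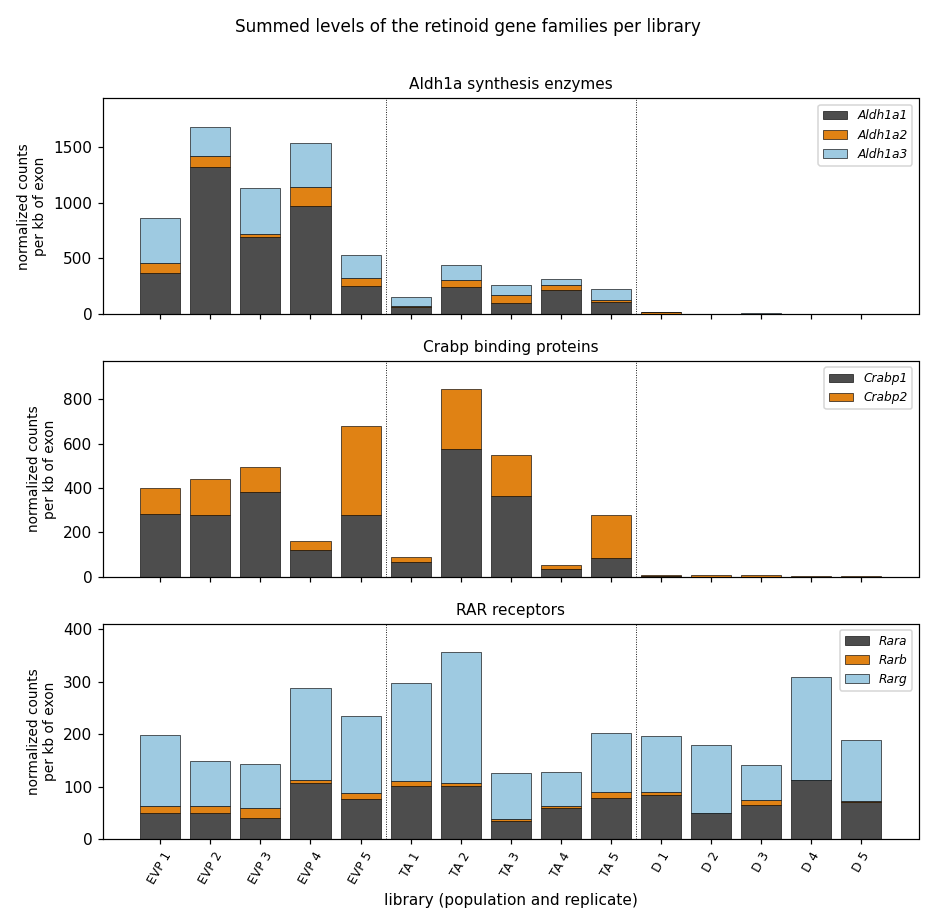
Summed level of the Aldh1a enzymes, the Crabp binding proteins and the RAR receptors (vertical axes, normalized counts per kb of exon) in each of the 15 libraries (horizontal axis, population and replicate), with each bar divided by gene. The Aldh1a sum is at most 18.2 in D and at least 529 in EVP, while the receptor sum lies between 126 and 357 in the 15 libraries.

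Within the enzyme family Aldh1a1 made up 58.6 ± 14.1% (SD, n = 5) of the summed level per kb in EVP and 51.1 ± 12.3% in TA, Aldh1a3 32.8 ± 12.3% and 34.6 ± 12.1%, and Aldh1a2 8.57 ± 4.47% and 14.3 ± 8.92%. The sum itself was 1148 ± 474 in EVP, 277 ± 108 in TA and 6.08 ± 7.15 in D, where 4 to 41 reads stand behind it and shares are not read. The sum of the binding proteins was 436 ± 187 in EVP, 362 ± 335 in TA and 5.63 ± 4.23 in D. Crabp1 made up 65.1 ± 14.6% of it in EVP and 62.5 ± 18.0% in TA.

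The summed receptor level per kb was 203 ± 60.9 in EVP, 222 ± 103 in TA and 204 ± 62.9 in D. Rarg held 61.3 ± 4.35%, 61.5 ± 8.45% and 59.9 ± 9.40% of it in turn, and Rarb 7.01 ± 4.31%, 3.48 ± 1.60% and 1.86 ± 2.32%. The Rara share was 31.7 ± 4.63% in EVP, 35.0 ± 7.75% in TA and 38.2 ± 7.32% in D. None of its 3 pairwise differences passed an exact two-sided permutation test (EVP against D p = 0.135, EVP against TA p = 0.437, TA against D p = 0.516, adjusted 0.405, 0.516 and 0.516), for which 0.00794 is the smallest p that 5 against 5 libraries can give.

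The rest of the retinoid pathway was followed in a list of 68 further genes, of which 61 passed the filter on low values. Between EVP and D, 19 were higher in EVP, 4 were lower and 38 did not pass, with a median log2 fold change of 0.92. Over all genes tested, 11.6% were higher in EVP and 7.46% lower (median 0.46). Between TA and D, 15 were higher in TA and 2 lower (median 0.97), beside 8.21% and 4.31% of all genes (median 0.24). Between EVP and TA, 3 were higher in EVP and 2 lower (median 0.14), beside 1.56% and 1.94% of all genes (median 0.09). None of those 5 passed without replicate 1 of each population, or without the 6 libraries in which most olfactory receptor genes had a read. The plot of fold changes for the named genes shows them by role.

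**Figure D4:**
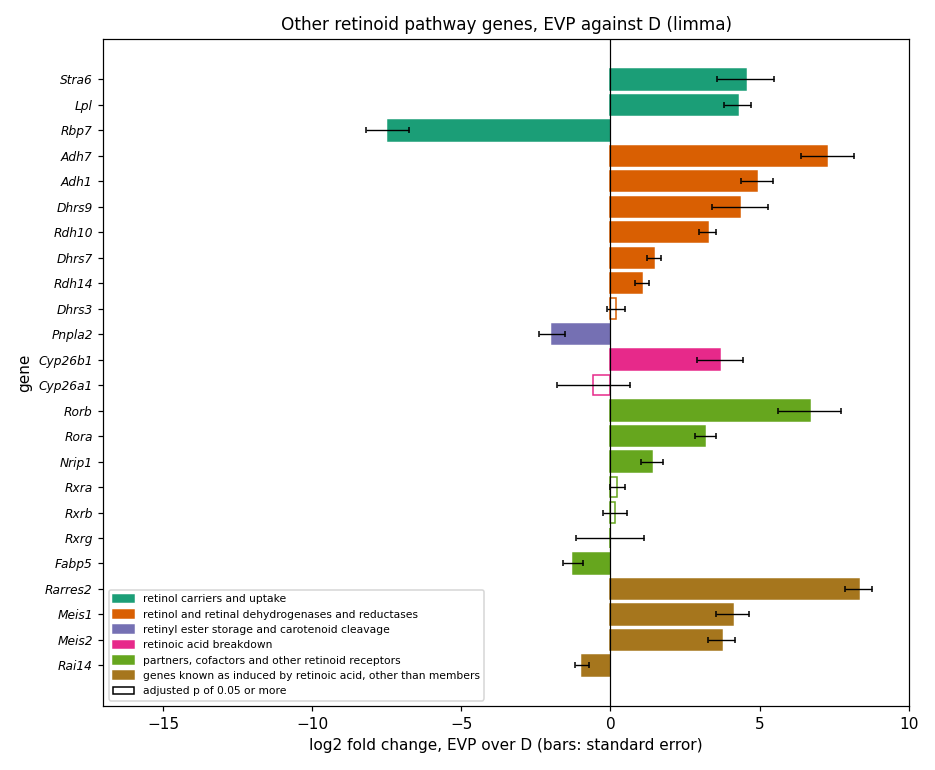
Fitted log2 fold change of EVP over D (horizontal axis, bars for the standard error) for named genes of the wider retinoid list, colored by role, with filled bars for adjusted p under 0.05 and open bars for the rest. Rarres2 has the highest value (8.32) and Rbp7 the lowest (-7.47).

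Of the 18 retinol and retinaldehyde dehydrogenases and reductases tested, 6 were higher in EVP than in D and none was lower. Over all genes the shares were 11.6% higher and 7.46% lower. Rdh10, the main enzyme of retinol oxidation in the embryo, had 1514 ± 361 normalized counts in EVP, 489 ± 209 in TA and 160.3 ± 52.6 in D. It was higher in EVP than in D (log2 fold change 3.26, adjusted p = 2.70e-07) and also higher in EVP than in TA (1.69, adjusted p = 0.00460), with no overlap in either comparison. The alcohol dehydrogenase Adh1 had 1925 ± 1123, 411 ± 248 and 61 ± 36.4, and Adh7, which oxidizes retinol in epithelia, had 592 ± 307, 358 ± 297 and 12.6 ± 26.0. The D mean of Adh7 came mostly from replicate 1 and was 0.960 without it. Adh1 was higher in EVP than in TA (log2 fold change 2.2, adjusted p = 0.0292), as was Dhrs7 (0.98, adjusted p = 0.0199). Dhrs9 and Rdh14 were higher in EVP than in D, with log2 fold changes of 4.34 and 1.05.

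Dhrs3, which turns retinaldehyde back into retinol and is induced by retinoic acid in many cells, was abundant everywhere and did not pass between EVP and D. It had 4464 ± 2202 normalized counts in EVP, 2088 ± 847 in TA and 3665 ± 875 in D. The lower TA mean did not pass against EVP (adjusted p = 0.0717) or against D (adjusted p = 0.0809).

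Among carriers, the 2 genes Rbp4 and Rbp7 ran in opposite directions. Rbp7, a cytoplasmic retinol binding protein of microvascular endothelium and fat, had 52.7, 34.0, 32.7, 74.3 and 123 normalized counts in the EVP libraries and 4314, 23205, 17918, 8654 and 6604 in D. Every D library was higher, and the log2 fold change of EVP over D was -7.47 ± 0.73 (adjusted p = 7.36e-07). TA had 1396, 1319, 3439, 1696 and 99.6, with replicate 5 inside the EVP range, and Rbp7 was lower in EVP than in TA (-4.16, adjusted p = 0.00483) and in TA than in D (-3.31, adjusted p = 0.00503). TA replicate 5 also had the lowest endothelial marker sum of the TA libraries, 5632.

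The retinol receptor Stra6 was low, with 44.6 ± 31.2 in EVP, 50.5 ± 79.2 in TA and 2.20 ± 4.91 in D, where replicate 1 alone had reads. It was higher in EVP than in D (log2 fold change 4.53, adjusted p = 0.00216). Lipoprotein lipase, Lpl, which helps cells take up retinyl esters, had 6963 ± 3787 in EVP, 2962 ± 1016 in TA and 393 ± 233 in D. The lipase Pnpla2 was lower in EVP than in D, with 176 ± 101 against 624 ± 213.

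Of the breakdown enzymes, Cyp26b1 had 59.7, 82.3, 38.4, 84.7 and 31.1 normalized counts in EVP, 20.7, 102, 192, 50.1 and 52.3 in TA and 15.1, 0, 6.25, 7.51 and 0.604 in D. It was higher than D in EVP (log2 fold change 3.68, adjusted p = 0.00206) and in TA (3.9, adjusted p = 0.00251), and EVP and TA overlapped. Cyp26a1 was 0 to 21.1 in EVP, 0 to 59.2 in TA and 0 to 10.2 in D, and its interval for EVP over D ran from -3.16 to 2.01. Cyp26c1 was under the filter, with at most 9.67 normalized counts in a library.

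The retinoid X receptors, which pair with the retinoic acid receptors, passed in no comparison. Rxra had 271 ± 77.3, 275 ± 46.8 and 229 ± 51.8 normalized counts in EVP, TA and D, Rxrb had 176 ± 56.1, 207 ± 118 and 153 ± 31.0, and Rxrg had 5.40 ± 8.70, 9.68 ± 7.67 and 3.37 ± 4.53, with a D mean of Rxrg of 1.47 without replicate 1. For EVP over D the 95% intervals were -0.30 to 0.76 for Rxra and -0.67 to 0.97 for Rxrb on the log2 scale. The orphan receptors Rora and Rorb were higher in EVP than in D, with 1135 ± 132 against 146 ± 98.1 and 476 ± 464 against 15.7 ± 32.0. Both Rorb means rested on replicate 1 and were 274 in EVP and 1.43 in D without it. The corepressor Nrip1 was also higher (546 ± 154 against 214 ± 87.1), and Fabp5, a fatty acid binding protein that can carry retinoic acid, was lower (973 ± 491 against 2213 ± 768).

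Of 12 tested genes known to be induced by retinoic acid, 5 were higher in EVP than in D, 1 was lower and 6 did not pass. Over all genes the shares were 11.6% higher and 7.46% lower. Rarres2, which encodes the secreted protein chemerin, had 10694 ± 7231 normalized counts in EVP, 3742 ± 2950 in TA and 30.9 ± 16.5 in D. Its log2 fold change was 8.32 ± 0.46 for EVP over D (adjusted p = 1.14e-09) and 6.76 ± 0.46 for TA over D (adjusted p = 4.18e-08). The homeobox genes Meis1 and Meis2 had 299.8 ± 46.8 and 527 ± 309 in EVP, against 22.2 ± 19.9 and 38.9 ± 17.2 in D, where the Meis1 mean was 14.1 without replicate 1. Nr2f1 and Gata6 were the other genes that were higher. Rai14 went the other way, with 1688 ± 419 in EVP and 3233 ± 705 in D (log2 fold change -0.94, adjusted p = 0.00760).

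Genes whose levels followed a member most closely were found by Pearson's r of log2(normalized count + 1) over the 15 libraries, which share 3 populations and their depth, and r is given as a description. Aldh1a1 was nearest to Ifi205, Efemp1 and Adgrd1 (r = 0.99 each), and Aldh1a3 to Fgf7, C3 and Srpx (r = 0.99 each). Rbp4 was nearest to Serpinb2 (0.98), Cxcl1 (0.97) and Zfhx4 (0.97), Crabp1 to Cldn10, Wnt16 and Col24a1 (0.98 each), and Aldh1a2 to Tubb4a, Itgbl1 and Ntrk2 (0.95 each). Crabp2 was nearest to Gm1673, Lgals1 and Cd63 (0.94, 0.94 and 0.93), and Rarb to Dixdc1, Gm42899 and Hebp2 (0.92, 0.92 and 0.91). For Rara the nearest were Actg1, Trabd and Slc35e4 (0.90, 0.87 and 0.86), and for Rarg Atxn2l, Tas1r1 and Acbd6 (0.85, 0.83 and 0.83). Rara and Rarg had r = 0.69 with each other, and values from -0.29 to 0.10 with Aldh1a1, Aldh1a2, Aldh1a3, Rbp4, Crabp1 and Crabp2.

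The same measure with the summed fibroblast markers was 0.98 for Aldh1a1, 0.96 for Aldh1a3 and Crabp1, 0.94 for Rbp4, 0.88 for Aldh1a2, 0.85 for Crabp2, 0.70 for Rarb, 0.07 for Rarg and -0.16 for Rara. Per 1000000 normalized counts of these markers, Aldh1a1 had a mean of 3040.5 in EVP (range 1276 to 4325) and 2229 in TA (886 to 4397), which overlap, although its normalized counts did not. Aldh1a3 had means of 1487 (817 to 2217) and 1260.3 (696 to 1851), and Rbp4 had 741 (416 to 1380.0) and 1065 (391 to 2056), which overlap as well. Crabp1 had means of 206 in EVP and 503 in TA, Crabp2 215 and 452, and Aldh1a2 187 and 296, also with overlap. In D, where few reads stand behind these ratios, the means were 672 for Aldh1a1, 5555 for Aldh1a3 and 2341 for Rbp4. The D means of Aldh1a2, Crabp1 and Crabp2 were 2719, 65.5 and 3862. The keratinocyte marker sum was 1033 to 6042 in EVP, 1269 to 67245 in TA and 69.1 to 1815 in D. It was highest in TA replicate 2, the library with the highest Crabp1 and Crabp2 of TA. The next sum, 12617 in TA replicate 1, stood beside low Crabp1 (53.4) and Crabp2 (27.6). TA replicate 5 had a sum of 4149 and a Crabp2 value of 255. The part of any of these cell types in the differences was not tested.

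**Figure D5:**
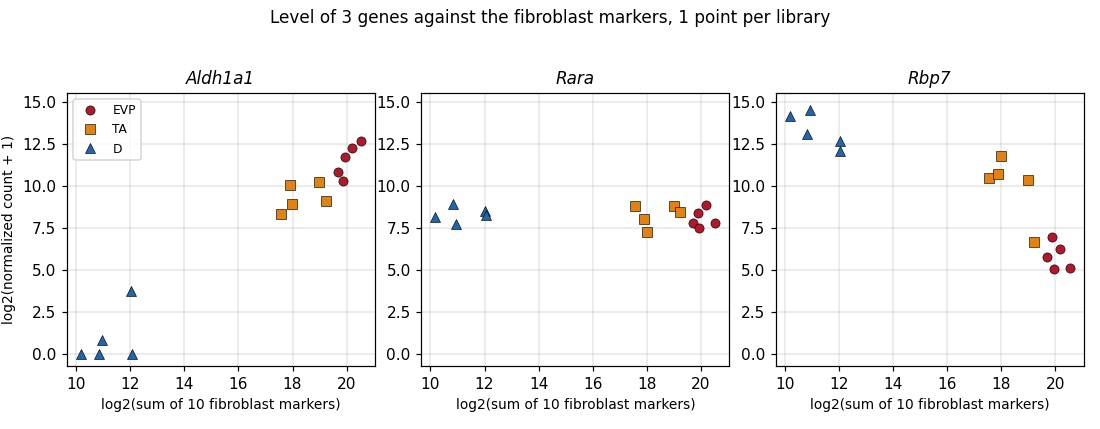
Level of Aldh1a1, Rara and Rbp7 (vertical axes, log2 of normalized count + 1) against the sum of 10 fibroblast markers (horizontal axes, log2), with 1 point per library and a symbol per population. Aldh1a1 is high where the markers are high, Rara lies between 151 and 489 normalized counts throughout, and Rbp7 is high in D, where the markers sum to 4252 at most.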

How the data were processed

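RNA was measured in 15 libraries, 5 of each population, by oligo-dT primed full-length sequencing that does not mark strand. Per the study's methods the authors aligned reads with STAR 2.5.3a to GRCm38 (mm10), used HTSeq-count 0.6.1 with Ensembl release 91 to count reads per gene and normalized with DESeq2 1.10.1. The strand setting of counting is not given in the sources used here. The values used are the deposited normalized counts, a signal made by the authors as read count divided by a size factor per library. Further deposited tables hold the authors' own fold changes and p-values between populations and were not used. Values came back as whole reads (tolerance 0.001), 5394356 to 26513073 per library. The limit of 3 reads covers counting error only, while the 95% intervals come from the limma fit and measure the spread between libraries.

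The 25549 genes whose mean reached 5 normalized counts were tested on log2(normalized count + 1) with limma 3.58.1 (R 4.3.3), 1 coefficient per population and a trend, with adjusted p by Benjamini-Hochberg over all of them and a threshold of 0.05. A fold change on this scale understates the change of low genes. The code was tested on simulated data. Alternatives were pseudocounts of 0.5 and 8, a minimum mean of 20, other normalizations, array weights, a replicate block, edgeR 4.0.16 and DESeq2 1.42.0 on whole reads, and leaving out libraries. Leaving out the 6 libraries in which most olfactory receptor genes had a read was chosen after seeing the data. Shares were compared by exact permutation tests. The 9 genes, the wider list, the markers and the tests were chosen with earlier results of these data known. Of the wider list, those past the threshold between EVP and D with a mean of at least 100 in the higher population are named, plus fixed genes of the pathway, of which 1 is not reported here. Other genes named (Nr2f1, Gata6) were chosen after their values were seen. Levels per kb used exon unions of GENCODE vM21 for GRCm38. The 220 gene rows whose symbol is shared by several genes were left out when genes of the lists were looked up by symbol. They were not left out of the search for similar genes. P-values measure the spread between libraries, which may be technical.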

Additional observations from a re-analysis of the deposited data

Results flagged for a closer look

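Of 102 groups of 5 libraries (the named genes in each of 3 populations), 7 had a library far from the other 4 by Dixon's ratio on the log2 scale, which is 6.86%, and chance gives about 1 in 20. In D, replicate 1 held 12.4 normalized counts of Aldh1a1 (0 to 0.816 in the others), 1.37 of Crabp1 (0 in the others) and 11 of Stra6 (0 in the others). In EVP, replicate 1 held 21.1 of Cyp26a1 (0 to 1.31 in the others), and replicate 4 held 96.7 of Crabp1 (222 to 305 in the others). In TA, replicate 5 held 99.6 of Rbp7 (1319 to 3439) and replicate 1 held 122 of Meis2 (297 to 414). D replicate 1 and EVP replicate 1 were also the libraries with the most olfactory receptor genes detected, 84.4% and 96.2%, and the part of this in the values was not tested.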

How the results depend on the processing

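Of the fits of single genes among the 9, 236 of 252 between EVP and D, 227 of 252 between EVP and TA and 238 of 252 between TA and D kept their direction and their side of the threshold. Between EVP and TA, where none of the 9 genes passed, 2 passed with a pseudocount of 8, 2 with quantile normalization, 2 in a fit of only these populations, 2 with DESeq2, 1 with edgeR and 1 with a minimum mean of 20, and 0 to 2 when a single library was left out (2 without D replicate 1, 1 without D replicate 2 or 3). Of the wider list 5 passed there, 3 with array weights, 9 with DESeq2, 0 without replicate 1 of each population, 0 without the 6 libraries in which most olfactory receptor genes had a read, and 3 to 8 without a single library (3 without EVP replicate 2, 3 or 4 or TA replicate 1, 8 without EVP replicate 5). Over all genes the count for EVP against TA was 893, but 1900 with DESeq2, 104 without replicate 1 of each population, 22 without the 6 libraries, and 429 to 1214 without a single library (429 without EVP replicate 2, 472 without EVP replicate 3, 560 without TA replicate 3). With array weights the count over all genes was 7609 in place of 4859 for EVP against D and 5054 in place of 3199 for TA against D, where quantile normalization gave 2117. Quantile normalization moved the median log2 fold change of EVP over D from 0.46 to -0.05 and the split of calls from 2952 higher and 1907 lower to 1920 higher and 1983 lower. The cause was not tested.

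Differences of Rarg and Rara, none of which passed, changed sign. For Rarg in EVP over D the log2 fold change was -0.073 with equal totals, -0.023 with quantile normalization, -0.030 with array weights, -0.053 with edgeR, -0.039 without replicate 1 of each population and -0.16 to 0.23 without a single library. For Rarg in EVP over TA it was 0.33 with array weights, 0.049 without replicate 1 of each population, 0.59 without the 6 libraries and -0.28 to 0.20 without a single library. For Rarg in TA over D it was -0.36, -0.088 and -0.48 in the same order and -0.16 to 0.32 without a single library. For Rara in EVP over TA it was 0.019 with array weights, 0.017 without replicate 1 of each population and 0.040 without the 6 libraries, and for Rara in TA over D -0.23 to 0.17 without a single library. Deviations of same-numbered libraries from their population means had correlations from -0.136 to 0.689. For replicates 1, 2, 4 and 5 these exceeded the highest correlation with an other-numbered library in every comparison (0.689 against -0.186 for replicate 1 in EVP against D). For replicate 3 they did not (0.242 against 0.274 in EVP against D). The sources do not say what same-numbered libraries share, so the main fit did not pair them, and a shared origin was not tested. With the replicate number as a block, 7, 1 (Aldh1a3, adjusted p = 0.0475) and 6 of the 9 genes passed in EVP against D, EVP against TA and TA against D, and 5710, 1262 and 4047 of all genes. Depth limits the D values of Crabp1, Aldh1a1 and Rbp4, which rest on 3 reads or fewer in 5, 4 and 3 libraries.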

Other observations

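Outside the retinoid genes, the marker lists differed between populations in other ways. The summed melanoma markers were 69334 to 176152 normalized counts in TA, 29776 to 67410 in EVP and 18213 to 47920 in D, and 7 of 7 tested were higher in TA than in D, although cells were sorted as GFP+ host cells. The summed mural markers were 4354 to 143512 in TA, 5086 to 28723 in EVP and 3928 to 8207 in D. Leukocyte markers summed to 6734 to 38413 in TA, 2084 to 10403 in EVP and 3098 to 9718 in D, although the gate was lineage negative. Lymphatic endothelial markers, of which 4 were tested, summed to 8341 to 18769 in EVP, 4402 to 6275 in TA and 2889 to 5646 in D. The EVP sum was mostly Pdpn, with a mean of 13904 in EVP and 164 in D. Flt4 (39.1 in EVP and 3506 in D) and Lyve1 (43.2 and 338) went the other way. Of the 4 genes, 1 was higher in EVP than in D and 2 were lower (median log2 fold change -1.83).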
